A study of Rattus norvegicus with 14 samples.

Results

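Eph receptors and ephrins were followed in the dentate gyrus of 14 rats through the probe sets of a short-oligonucleotide array. The members were 10 listed genes, and every probe set was taken whose only gene symbol in the platform annotation is a listed member. This found 12 probe sets of 7 genes (Epha3, Epha4, Epha5, Epha7, Efna1, Efna5 and Efnb1), out of 15866 probe sets other than controls and 10411 genes with a probe set of their own. No probe set carries Ephb1, Ephb2 or Efnb2 as its only symbol, so these 3 members are not analysed here. Of the 12 probe sets, 6 from 4 genes had a mean of at least 4 on the log2 scale over the 14 arrays and were tested. The other 6 lay below that level and are described without a test.

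Eph receptors form the largest family of receptor tyrosine kinases, and ephrins are their membrane-bound ligands. Ephrin-A ligands are held to the membrane by a lipid anchor and mostly bind EphA receptors, whereas ephrin-B ligands cross the membrane and mostly bind EphB receptors, with EphA4 binding members of both classes. Contact between cells sets off signals in the receptor cell and in the ligand cell, which act on the actin cytoskeleton through small GTPases. In the developing hippocampus the family guides axons to their layers, and in the adult it is known for shaping dendritic spines and contacts between neurons and astrocytes.

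All rats were male Long-Evans animals aged 3 to 4 months, without a genetic alteration given in the labels, and all had been trained in a standard water maze 2 to 3 weeks before. Each then had 1 session of 8 trials, 8 min apart, in a pool at another site. In the learning group (n = 7) the visible platform stayed in place and spatial cues were present. In the control group (n = 7) the visible platform moved and the surroundings held no informative cues. A 90 s probe swim without the platform took place 1 h later in both groups, and tissue was taken directly after it, so no rat was untrained or taken from its home cage. The dentate gyrus was dissected by hand and its RNA comes from all cell types in it. In such bulk tissue, fewer cells of a type and less RNA per cell cannot be told apart. Array medians ran from 5.09 to 5.12, and correlations between arrays, with low probe sets included, from 0.995 to 0.998 over the 15866 probe sets.

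EphA4, EphA5 and EphA7 transcripts and 1 of the 2 ephrin-B1 probe sets were measured above the testing level, and no member passed the test between learning and control rats. Means were higher in learning rats for both Epha7 probe sets, by 0.28 and 0.18 log2 units, and lower for both Epha4 probe sets, with differences of -0.084 and -0.14. Epha5 and Efnb1 differed by -0.015 and -0.032. In limma's moderated test, adjusted over 9387 probe sets, the adjusted p values of the 6 tested probe sets lay between 0.433 and 0.927, so 0 were called at 0.05, and no 95% confidence interval reached beyond 0.59 log2 units in either direction. At an unadjusted p below 0.05 the count was 0 of 6 as well, where 13.1% of all probe sets tested, or 1230, had such a p. The groups overlapped on all 12 member probe sets, tested or not. Groups did not overlap for 0.405% of the probe sets tested, and for 49 of all 15866 with no filter. No probe set of the whole array passed the adjusted threshold (0%).

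**Figure D1:**
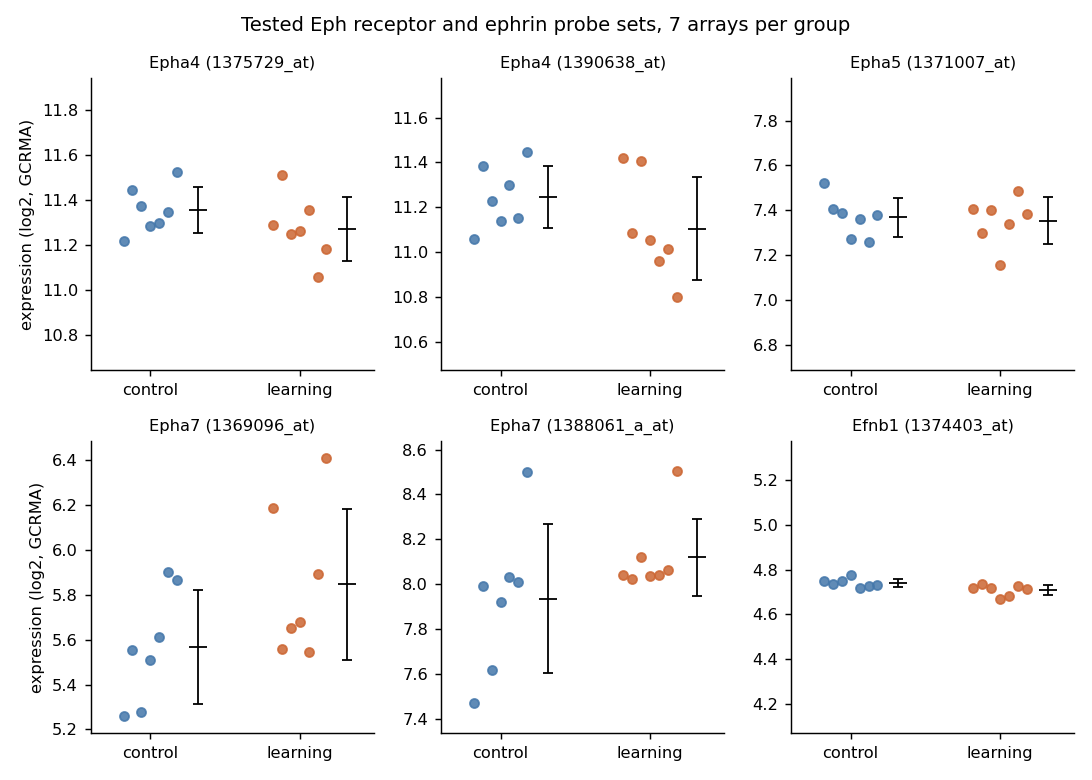
Expression (log2, GCRMA) of the 6 tested member probe sets in 7 control and 7 learning rats. Points are arrays in replicate order, bars are mean ± SD, and every panel spans the same number of log2 units around its own level. The groups overlap in all panels, and the spread is widest for Epha7 and narrowest for Efnb1.

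Epha4 encodes a receptor found on dendritic spines that binds ephrins of both classes. On probe set 1375729_at its level in control rats had a lowest value of 11.2, a median of 11.3 and a highest of 11.5. In learning rats the lowest was 11.1, the median 11.3 and the highest 11.5. Only 2 learning arrays lay above the control median and 2 lay below the lowest control array, while 1 control array lay above every learning array. The means were 11.4 ± 0.10 in control and 11.3 ± 0.14 in learning rats (SD, n = 7 each), a difference of -0.084 ± 0.068 (SE) with a 95% confidence interval from -0.23 to 0.061. This is 0.944-fold, with an interval from 0.853 to 1.04-fold (limma adjusted p = 0.606).

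The second Epha4 probe set, 1390638_at, ran from 11.1 through a median of 11.2 to 11.4 in control rats and from 10.8 through 11.1 to 11.4 in learning rats. Here 4 learning arrays lay below the lowest control array, and learning replicates 1 and 3 lay near the top of the control range. The difference was -0.14 ± 0.096 (SE), or 0.907-fold with a 95% confidence interval from 0.787 to 1.05-fold (limma adjusted p = 0.544). Both probe sets thus leaned the same way, with intervals that include 0. Without learning replicate 6 the difference of 1375729_at was -0.048, without control replicate 7 it was -0.055, and without learning replicate 7 that of 1390638_at was -0.09.

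Epha5 encodes a receptor of ephrin-A ligands present in hippocampal neurons. Its only probe set, 1371007_at, had a lowest control value of 7.26, a median of 7.38 and a highest of 7.52. The learning arrays ran from 7.16 through a median of 7.39 to 7.49. Of the 7 learning arrays, 4 lay above the control median, so the groups lay on top of each other. The difference was -0.015 ± 0.057 (SE) with a 95% confidence interval from -0.14 to 0.11, or 0.909 to 1.08-fold (limma adjusted p = 0.927), and its sign turned when control replicate 1 (0.0098) or learning replicate 4 (0.018) was left out. The spread within groups was small, at an SD of 0.097 against a median of 0.16 over all probe sets tested.

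Epha7 encodes a receptor of ephrin-A ligands that acts in repulsive guidance and in dendrite and spine formation, and it had the largest differences of the members. Probe set 1369096_at ran from 5.26 through a median of 5.56 to 5.90 in control rats and from 5.54 through 5.68 to 6.41 in learning rats. Learning replicates 1 and 7 lay above every control array, and 3 control arrays lay below every learning array. The difference was 0.28 ± 0.15 (SE) with a 95% confidence interval from -0.031 to 0.59, or 1.21-fold with an interval from 0.979 to 1.5-fold (unadjusted p of 0.0745 and adjusted p of 0.433 in limma). Without learning replicate 7 it was 0.18, and without control replicate 6 it was 0.33.

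The brighter Epha7 probe set, 1388061_a_at, ran from 7.47 through 7.99 to 8.50 in control rats and from 8.02 through 8.04 to 8.51 in learning rats. All 7 learning arrays lay above the control median, and 6 of them fell between 8.02 and 8.12 with learning replicate 7 apart at 8.51. Of the control arrays, 5 lay below every learning array and replicate 7 stood at 8.50. The difference was 0.18 ± 0.13 (SE) with a 95% confidence interval from -0.093 to 0.46, or 0.938 to 1.38-fold (limma adjusted p = 0.556). It moved with single rats: it was 0.11 without control replicate 1, 0.12 without learning replicate 7 and 0.28 without control replicate 7, where the unadjusted p was 0.0208 and the adjusted p 0.262.

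Efnb1 encodes ephrin-B1, a transmembrane ligand of EphB receptors that also signals into the cell that carries it. Its tested probe set, 1374403_at, ran from 4.72 through 4.74 to 4.77 in control rats and from 4.67 through 4.72 to 4.73 in learning rats. No learning array lay above the control median, 4 learning arrays lay below every control array, and 4 control arrays lay above every learning array. The difference was -0.032 ± 0.035 (SE), or 0.978-fold with a 95% confidence interval from 0.928 to 1.03-fold (limma adjusted p = 0.709). Limma's standard error draws on the spread of all probe sets, and the spread of this probe set, an SD of 0.021, was among the smallest: only 24 of 9387 probe sets tested had an SD no larger than it, itself included. A two-sided exact permutation test of the same values, added after the data had been seen, gave p = 0.0117 and an adjusted p of 0.253 over all probe sets tested. The SD of 1374403_at also lay below 0.025, the median SD of the probe sets not tested. The other Efnb1 probe set, 1369476_at, lay between 1.93 and 1.96 on every array.

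Members with no probe set above the testing level were the receptor gene Epha3 and the ligand genes Efna1 and Efna5. Epha3, which encodes a receptor that prefers ephrin-A5, ran from 2.41 to 2.45 in control and from 2.39 to 2.45 in learning rats. Efna1, the gene of ephrin-A1, a ligand also made by blood vessels, ran from 2.52 to 2.60 and from 2.52 to 2.55 on 1372844_at, and from 2.73 to 2.83 and from 2.77 to 2.86 on 1398273_at. Efna5 encodes ephrin-A5, a ligand of EphA4, EphA5 and EphA7. It ran from 2.28 to 2.30 and from 2.27 to 2.30 on 1369594_at, and from 2.46 to 2.53 and from 2.48 to 2.59 on 1375647_at. Group means of these probe sets and of Efnb1 1369476_at differed by -0.014 to 0.028, and their SD within groups lay between 0.0062 and 0.032. The means of these probe sets exceeded those of 4.9% to 23.5% of all probe sets other than controls. At such low values GCRMA compresses differences, so a small change of these transcripts could go unseen. A detection limit was not measured. With the filter on low values removed, 0 of these 6 probe sets had an unadjusted p below 0.05 in limma, and the lowest adjusted p was 0.615. Of all 15866 probe sets in that fit, 1476 had an unadjusted p below 0.05. With differences compressed, the count of 0 does not show that these transcripts were unchanged.

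**Figure D2:**
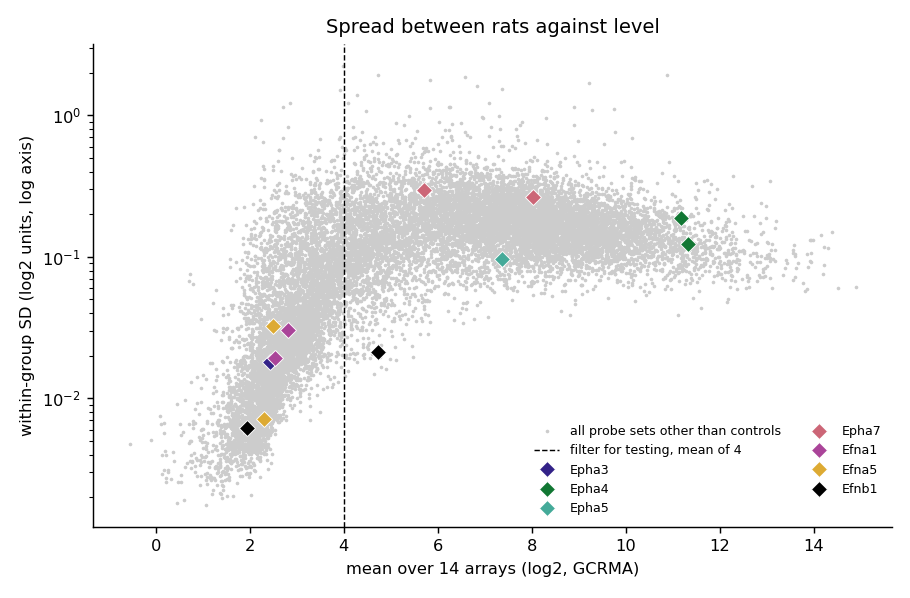
Within-group SD (log axis, log2 units) against the mean over 14 arrays (log2, GCRMA) for all probe sets other than controls, with the 12 member probe sets as diamonds and the testing level of 4 as a dashed line. Epha7 lies in the upper part of the cloud, at SDs of 0.30 and 0.26, and the untested members lie at the left with SDs of at most 0.032.

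Of the tested receptors, Epha7 had the widest spread between rats, a difference that was not tested. The SD within groups was 0.30 and 0.26 on its 2 probe sets, larger than that of 91.0% and 86.8% of the probe sets tested. Epha4 had an SD of 0.19 on 1390638_at and 0.12 on 1375729_at, which exceeded 64.3% and 28.6%, and Epha5 exceeded 14.4%. Over the 14 arrays the 2 Epha7 probe sets varied together, with Pearson's r = 0.768 (permutation p = 0.00179, adjusted p = 0.00895 over 5 genes with a pair of probe sets) and Spearman's rho = 0.758 (permutation p = 0.00234, adjusted p = 0.0117). Without the 2 arrays farthest from the median of 1369096_at, learning replicates 1 and 7, r was 0.804, and within groups it was 0.862 in control and 0.725 in learning rats. Control replicates 1 and 3 were lowest on both probe sets, and replicate 7 of each group was highest or next to highest of its group on both. The 2 probe sets share the RNA and the array of each rat.

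For Epha4 the probe sets followed each other less closely, with r = 0.454 (permutation p = 0.102, adjusted p = 0.255) and rho = 0.486 (permutation p = 0.0803, adjusted p = 0.201). The value was 0.881 within control and 0.148 within learning rats, a difference that was not tested, and 0.243 without control replicate 7 and learning replicate 6. Learning replicates 1 and 3 were high on 1390638_at and in the middle on 1375729_at. For Efna1, Efna5 and Efnb1, of which at most 1 probe set was tested, r was -0.045, -0.21 and 0.305, with adjusted permutation p values of 0.869, 0.554 and 0.465.

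**Figure D3:**
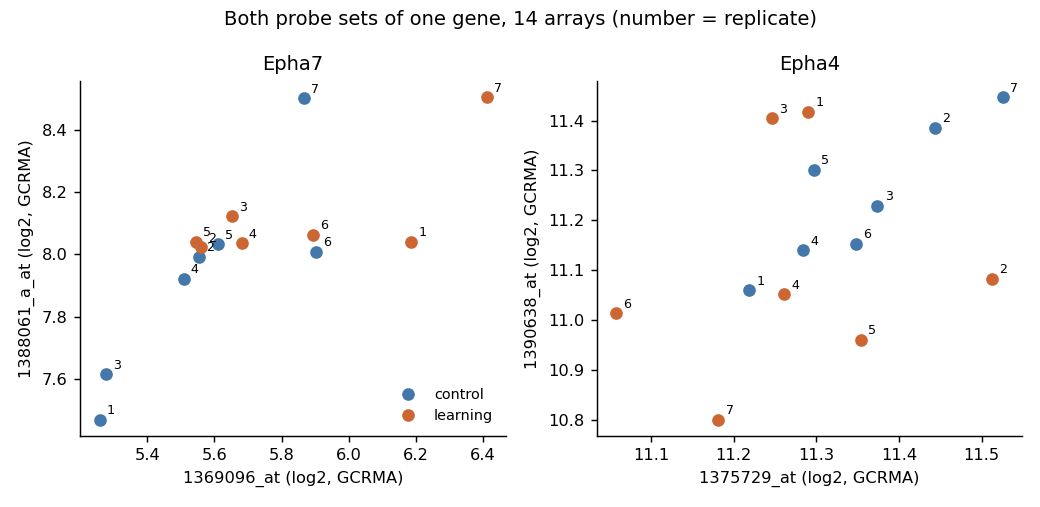
Log2 values (GCRMA) of both probe sets of Epha7 (left) and Epha4 (right) on 14 arrays, coloured by group and numbered by replicate. The Epha7 points run along a diagonal (r = 0.768) and the Epha4 points scatter more (r = 0.454).

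The genes whose pattern over the 14 arrays was most like that of a member, among 7790 other tested probe sets with a gene symbol, are given as a description. For Epha4 1375729_at they were Bsn, which encodes the active zone protein bassoon (r = 0.805, rho = 0.754), and Pdk2, a pyruvate dehydrogenase kinase (r = 0.793, rho = 0.802). The mean of this Bsn probe set was 4.25, near the testing level, and that of Pdk2 was 9.78. For Epha5 they were Mms19 (r = 0.867, rho = 0.846), which acts in iron-sulphur protein assembly, and Cln8 (r = 0.824, rho = 0.745), a gene of neuronal ceroid lipofuscinosis. For Epha7 1388061_a_at they were Slc6a15, a neutral amino acid transporter of neurons (r = 0.849, rho = 0.749), and Nkain1, a partner of the sodium pump (r = 0.849, rho = 0.679). For Efnb1 1374403_at they were Cacnb2, a calcium channel subunit (r = 0.916, rho = 0.758), and Brca2 (r = 0.906, rho = 0.895), which were low too, at means of 4.42 and 4.2. A highest value out of so many carries no p.

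Of the other members of the family, the annotation holds Epha2, Epha8, Epha10 and Ephb4, 4 of 12 listed, and none reached the testing level. Their arrays ran from 2.09 to 3.36.

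Genes that act with Eph receptors were taken from 5 lists by role. Of 36 that were tested, 17 had a higher and 19 a lower mean in learning rats, with a median difference of -0.0081, and over all 6697 genes tested 50.6% were higher with a median of 0.0018. No partner gene passed adjustment in limma (lowest adjusted p = 0.251). At an unadjusted p below 0.05 there were 5, or 13.9%, against 12.6% of all genes tested.

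Of 9 exchange factors and GTPase-activating proteins, 3 were higher and 6 lower, with a median of -0.016. Tiam1, a Rac exchange factor that Eph receptors recruit, differed by -0.33 ± 0.16 (SE; limma adjusted p = 0.382), and its learning arrays spread from 7.20 to 8.36 around control arrays of 7.91 to 8.34. Chn1, the gene of alpha-chimaerin, a Rac-inactivating protein downstream of EphA4, differed by -0.091 ± 0.059 (SE; limma adjusted p = 0.524), with 5 learning arrays below the lowest control array. Among 9 tyrosine kinases, adaptors and lipid enzymes, 5 were higher and 4 lower, with a median of 0.062. Fyn, a Src family kinase that relays EphA4 and ephrin signals, differed by -0.21 ± 0.070 (SE; limma adjusted p = 0.251), with 5 learning arrays below every control array, and by -0.086 on its second probe set. Cdk5, a neuronal kinase that acts downstream of EphA4, differed by 0.11 ± 0.070 (SE; limma adjusted p = 0.527).

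The PDZ and scaffold partners had 4 of 5 higher, with a median of 0.074. Afdn, which encodes the junction protein afadin, differed by 0.19 ± 0.093 (SE; limma adjusted p = 0.403), and by -0.038 on its other probe set. Sdc2, the syndecan that EphB2 phosphorylates in spine formation, differed by 0.17 ± 0.13 (SE; limma adjusted p = 0.578), and by -0.059 on its other probe set. Of 7 proteases, phosphatases and degradation factors, 3 were higher and 4 lower, with a median of -0.076. Ptpn11, the phosphatase SHP2, differed by 0.14 ± 0.064 (SE; limma adjusted p = 0.354) and Adam17, a sheddase, by -0.12 ± 0.056 (SE; limma adjusted p = 0.370) at levels near 4. Of 6 synaptic and glial partners, 2 were higher and 4 lower, with a median of -0.071. L1cam, an adhesion protein phosphorylated by EphB receptors, differed by -0.14 ± 0.078 (SE; limma adjusted p = 0.462) and Reln, the gene of reelin, by 0.27 ± 0.16 (SE; limma adjusted p = 0.497).

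**Figure D4:**
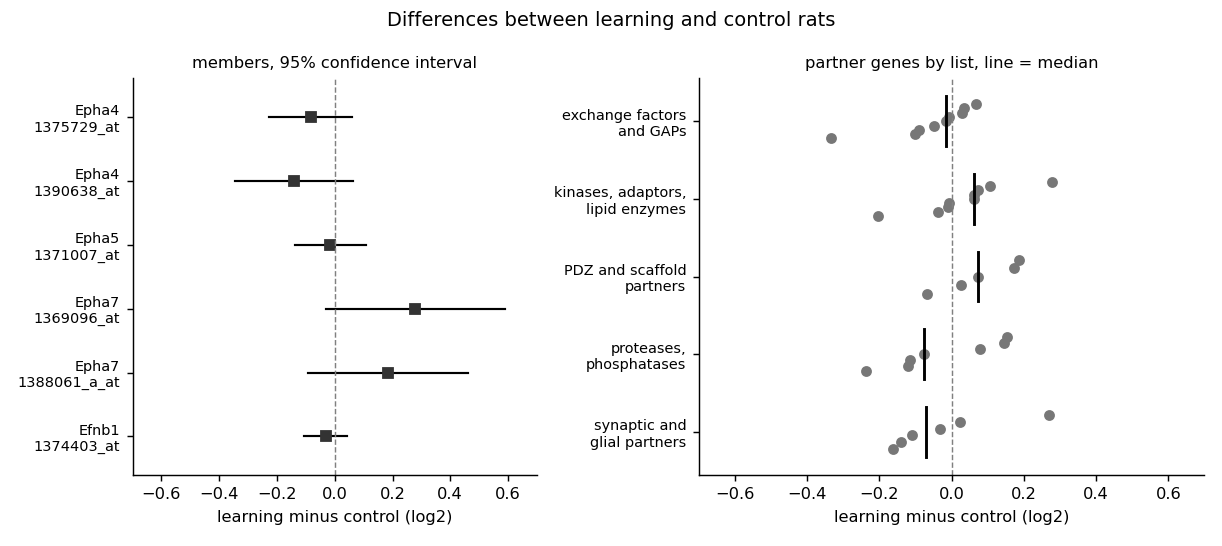
Learning minus control in log2 units. Left, the 6 tested member probe sets with 95% confidence intervals, all of which include 0. Right, each tested partner gene as a point, with a vertical line at the median of its list; the point farthest to the left is Tiam1 at -0.33.

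Cell type markers were set beside the members, since family members are made by neurons, glia and vessels. The tissue carried granule cell markers, with Prox1 at 10.3 ± 0.25 and Calb1 at 10.8 ± 0.080 in control rats (SD, n = 7), while the granule gene Tdo2 lay below the testing level. Means over lists differed between groups in a two-sided exact permutation test, adjusted over 12 lists, for choroid plexus (-0.61, adjusted p = 0.00699, from the smallest p this test can give, 3 of 8 markers tested), CA3 (0.18, adjusted p = 0.0385, 4 of 6) and granule cells (0.16, adjusted p = 0.042, 4 of 7). Arrays ran from 5.93 to 6.79 in control and 5.70 to 5.87 in learning rats for choroid plexus, where Kl, Folr1, Kcnj13, Cldn2 and F5 lay below the testing level. They ran from 9.64 to 9.85 and 9.75 to 10.1 for CA3, and from 8.60 to 8.99 and 8.87 to 9.11 for granule cells. Of the 4 granule markers behind that mean, Dsp differed most, by 0.44, with 0.15 for Trpc6, 0.076 for Prox1 and -0.029, the other sign, for Calb1. The CA3 call was lost in 7 and the granule call in 9 of 14 fits that each left out 1 array, with values down to 0.16 and 0.11. Both calls were lost without control replicate 2, 3 or 4 or learning replicate 4, 5, 6 or 7, and the granule call also without learning replicate 2 or 3. The granule call was lost too with quantile normalization (adjusted p = 0.0513). CA1 markers differed by 0.32 (adjusted p = 0.0979) and microglial markers by -0.18 (adjusted p = 0.0979). With each array left out, CA1 ran from 0.25 to 0.42 and microglial markers from -0.23 to -0.14. Each list was called in 1 of these 14 fits. This was without control replicate 5 for CA1 (0.42, adjusted p = 0.00699) and without control replicate 6 for microglia (-0.23, adjusted p = 0.0326). Endothelial and mural markers, with 7 of 11 tested, differed by 0.015 (adjusted p = 0.864). The mean of meningeal and fibroblast markers, with 7 of 9 tested, was 6.20 ± 1.28 in control and 5.81 ± 1.38 in learning rats (SD, n = 7 each), a difference of -0.39 (exact permutation adjusted p = 0.864) that ran from -0.75 to -0.12 with each array left out. Its arrays spread from 4.81 to 7.80 in control and from 4.61 to 7.94 in learning rats, with control replicates 3, 4 and 5 and learning replicates 1, 3 and 4 highest. These lists were chosen with earlier results known, so the p values are no independent evidence, and the part of tissue makeup in the members' differences was not tested.

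Over 48 relations between the 4 tested members and the 12 marker means, 4 had an unadjusted permutation p below 0.05 for Pearson's r and 8 for Spearman's rho, and 0 passed adjustment by either. Epha7 1388061_a_at had rho of 0.59 with granule, 0.57 with CA3 and -0.57 with choroid plexus markers (permutation p = 0.0314, 0.0365 and 0.0366). Efnb1 1374403_at had rho of -0.58 with granule, -0.62 with CA1 and 0.61 with choroid plexus markers (permutation p = 0.0341, 0.022 and 0.0216). Each had an adjusted p of 0.22, and none a permutation p below 0.05 for r. All these lists but CA1 had means that differed between groups. The smallest p for r was that of Epha5 with endothelial and mural markers, at r = -0.57 (permutation p = 0.0335, adjusted p = 0.483) and rho = -0.29 (permutation p = 0.311), which fell to -0.012 without control replicate 1 and learning replicate 4. The smallest p for rho was that of Epha4 on 1375729_at with oligodendrocyte markers, at r = -0.55 (permutation p = 0.0412, adjusted p = 0.483) and rho = -0.76 (permutation p = 0.00239, adjusted p = 0.115), and r was -0.64 without control replicates 3 and 4. Within groups this r was -0.77 in control and -0.44 in learning rats. Efnb1 on 1374403_at and CA3 markers, a list whose mean differed between groups, had r = -0.56 (permutation p = 0.034, adjusted p = 0.483) and rho = -0.64 (permutation p = 0.0175, adjusted p = 0.22). This r was -0.70 without learning replicates 6 and 7, and -0.24 within control and -0.20 within learning rats. Efnb1 and microglial markers had r = 0.56 (permutation p = 0.0366, adjusted p = 0.483) and rho = 0.53 (permutation p = 0.0545, adjusted p = 0.27). That r fell to 0.17 without control replicates 3 and 4, so the relation rests on those arrays, and within groups it was 0.87 in control and -0.44 in learning rats.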

How the data were processed

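Dentate gyrus was dissected by hand from 14 rats, and the total RNA of each rat went as biotin-labelled cRNA onto 1 Affymetrix RAE230A array, per the labels' protocols. The authors deposited log2 values for each probe set, for which the submitters' processing notes name GCRMA, with version and settings not given in the sources used here. This method corrects background from probe sequence and compresses differences near it. The log2 scale was read from the values, which ran from -0.56 to 15.0. Titles gave the groups and replicate numbers and describe biological replicates, with no batch or scan date in the labels.

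Of 15866 probe sets other than the 57 controls, 12783 carry 1 gene symbol, 312 several and 2771 none. The 9387 with a mean of at least 4 entered a fit of learning minus control in limma 3.58.1 (R 4.3.3), with default eBayes and Benjamini-Hochberg adjustment at 0.05, checked on simulated data. The probe set of highest mean stood for a partner gene. Marker means were compared by exact permutation over 3432 assignments (smallest p 0.000583), and correlations over 14 arrays used 100000 permutations. Genes named were all members, the 2 most like each tested member, and the 2 partner genes of smallest p per list. Of the partner lists, 1 is not reported here. Members, lists and tests were chosen with earlier results of these data known. The permutation test per probe set was added after the data had been seen. Without a genome build for the probe sets, no coordinates are printed. The number of arrays limits the precision. Figures used matplotlib 3.10.9.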

Additional observations from a re-analysis of the deposited data

Results flagged for a closer look

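A rat was picked out where its distance to the nearest other rat of its group as a share of the group's range passed Dixon's 95% limit for 7 samples. Normally distributed values pass it in about 1 of 20 groups. Of 24 groups of member values 5 passed, and 9 of 68 with marker means and named partner genes. The share over all probe sets was not computed, so these counts do not show that members have more such rats than other genes. For Epha7 1388061_a_at, learning replicate 7 was at 8.51, where the next learning rat was at 8.12. The same rat was highest on the other Epha7 probe set. The other member values lay in the compressed range below the testing level: Epha3 in learning replicate 4 (2.39, lowest), Efna1 1372844_at in control replicate 3 (2.60, highest), and Efna5 1375647_at in control replicate 4 (2.53, highest) and learning replicate 5 (2.59, highest). The granule cell marker mean was lowest in control replicate 2 (8.60), and the oligodendrocyte precursor marker mean was highest in learning replicate 4 (9.02). Sdc2 was lowest in control replicate 1 (6.58) and L1cam was lowest in learning replicate 6 (8.10).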

How the results depend on the processing

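Members were refitted with a stricter or no filter, a floor at 3, quantile normalization, arrays centred on their median, weights for arrays, a trended prior, the replicate number as a block and each array left out. Across these, no tested member passed an adjusted p of 0.05 (lowest 0.262), and signs held except for Epha5, which ran from -0.037 to 0.018 without 1 array. Beside those printed elsewhere, unadjusted p values below 0.05 in limma were 0.0225 for Efnb1 1374403_at with no filter (adjusted p = 0.445), 0.044 for Epha7 1369096_at with weights for arrays (adjusted p = 0.323) and 0.0392 to 0.047 for it without control replicate 6 or 7 or learning replicate 2 or 5 (adjusted p from 0.317 to 0.425). Efnb1 1374403_at and Epha7 1369096_at have no value with the filter at 6. With each array left out, the number of probe sets called ran from 0 to 1, being 1 without control replicate 6, learning replicate 1 or learning replicate 4, and the number with groups that do not overlap ran from 42 to 85. Marker means that changed sign in such fits ran from -0.061 to 0.0049 for interneurons, -0.031 to 0.096 for oligodendrocytes, -0.025 to 0.043 for endothelium and -0.013 to 0.057 for thalamus. Same-numbered arrays correlated at -0.28 to 0.26 in their deviations over 7 pairs, 4 of them above 0.1. Of 14 arrays, 6 correlated best with their own number, and whether the numbers pair rats was not tested. The labels do not say that they do, so the number entered only as a block in an alternative fit. With the replicate block Epha7 1369096_at had an unadjusted p of 0.043 (adjusted p = 0.334 in limma) at the same difference of 0.28. For Epha7 1388061_a_at the unadjusted limma p was 0.0613 in place of 0.177. It was 0.25 in place of 0.236 for Epha4 1375729_at, and 0.235 in place of 0.164 for 1390638_at. For Efnb1 1374403_at it was 0.485 in place of 0.382, and for Epha5 0.793 either way. With the block 1330 probe sets had an unadjusted p below 0.05 against 1230, with 0 called either way. In the exact permutation test these counts were 1217 and 0.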

Other observations

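Over the 66 pairs of member probe sets, 4 had an adjusted permutation p below 0.05 for Pearson's r and 4 for Spearman's rho, of which 3 passed by both. All of these but the pair of Epha7 probe sets include a probe set in the compressed range below the testing level. How often other probe sets at such levels vary together was not computed, so the counts are no result about the family. The closest pair joined different genes that both lay below the testing level. Epha3 and Efna5 1369594_at had r = 0.869 (permutation p = 9e-05, adjusted p = 0.00594) and rho = 0.903 (permutation p = 4e-05, adjusted p = 0.00264) over 14 arrays, although their SDs within groups were 0.018 and 0.0072. Without control replicate 4 and learning replicate 4, r was 0.928, and it was 0.707 within control and 0.946 within learning rats. Epha3 and Efna1 1398273_at had r = 0.753 (permutation p = 0.00301, adjusted p = 0.0497) and rho = 0.846 (permutation p = 0.00035, adjusted p = 0.0116), with r = 0.794 without the same 2 arrays and r = 0.954 and 0.959 within control and learning rats. Epha5, which was tested, and Epha3 had r = 0.757 (permutation p = 0.00263, adjusted p = 0.0497) and rho = 0.596 (permutation p = 0.0281, adjusted p = 0.188), so this pair does not pass by rho. Its r fell to 0.459 without control replicate 1 and learning replicate 4, so part of the relation rests on those arrays. Within groups its r was 0.527 in control and 0.887 in learning rats. Efna1 1398273_at and Efna5 1369594_at, both below the testing level, passed by rho and not by r, with r = 0.612 (permutation p = 0.0211, adjusted p = 0.232) and rho = 0.815 (permutation p = 0.00064, adjusted p = 0.0141). Their r was 0.861 without control replicates 2 and 4, and 0.641 within control and 0.961 within learning rats. Among the 15 pairs in which both probe sets were tested, 1 passed by r, the 2 probe sets of Epha7.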
